A study of Mus musculus with 4 samples.

Results

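Cxcr6+ T cells without NKT genes are a set of mouse liver leukocytes selected on the UMIs (unique molecular identifiers, each counting 1 captured transcript molecule) of 17 genes in single-cell libraries, and 59 of 1593 kept cells met the rule. A member had UMIs of at least 2 of the T cell genes Cd3d, Cd3e, Cd3g and Trac, with at least 1 from Cd3d or Cd3e, and at least 1 UMI of Cxcr6. It had none of Klrb1c or Zbtb16, the genes of natural killer T (NKT) cells used here. It also had fewer than 2 of the cytokine genes Ifng, Csf2, Cd40lg, Il4 and Tnf, no Cd79a of B cells, and fewer than 3 of the Kupffer cell genes Clec4f, Vsig4, Cd5l and Slc40a1. The libraries hold CD45+ cells from healthy livers of PA-GFP C57BL/6 mice. PA-GFP is a photoactivatable fluorescent protein, and all 4 libraries are labelled with photoactivation. The tissue zone is portal vein (PV), where blood enters the lobule, for 2 libraries and central vein (CV), where it leaves, for the other 2. The labels give neither age nor sex. They do not tie a library to a mouse of its own, so a p-value here measures spread among libraries that may be technical. The members numbered 30 and 14 in PV replicates 1 and 2, and 4 and 11 in CV replicates 1 and 2.

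CXCR6 is the receptor for CXCL16, a chemokine that macrophages and sinusoidal endothelium of the liver display at their surface. T cells that carry CXCR6 include NKT cells, which patrol the sinusoids and see lipids on CD1d, and conventional CD8 and CD4 memory cells that stay in the liver. Cells that recirculate instead through blood and lymph nodes carry CCR7 and the sphingosine phosphate receptor S1PR1, both held up by the transcription factor KLF2. RUNX3 is a transcription factor of cytotoxic and tissue-lodged T cells.

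The sequences below are the 250 bases before the transcription start of the receptor gene that defines the cells and of a pair of genes with higher levels in them than in Cxcr6-negative T cells. They are shown because each holds the core letters bound by RUNX proteins. Each is from RefSeq on GRCm38.p6, printed 5′ to 3′ on the gene's own strand, with the capitals marking the motif TGTGGT or the same motif on the other strand, ACCACA. Cxcr6 lies on the plus strand with its window at chr9:123806227-123806476, Klrk1 on the minus strand at chr6:129623865-129624114, and Nkg7 on the plus strand at chr7:43436888-43437137.
Cxcr6: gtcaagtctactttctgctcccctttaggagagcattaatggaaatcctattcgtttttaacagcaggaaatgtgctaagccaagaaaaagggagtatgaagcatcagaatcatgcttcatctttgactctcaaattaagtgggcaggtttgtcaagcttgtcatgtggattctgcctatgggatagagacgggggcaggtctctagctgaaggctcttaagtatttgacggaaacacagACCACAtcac
Klrk1: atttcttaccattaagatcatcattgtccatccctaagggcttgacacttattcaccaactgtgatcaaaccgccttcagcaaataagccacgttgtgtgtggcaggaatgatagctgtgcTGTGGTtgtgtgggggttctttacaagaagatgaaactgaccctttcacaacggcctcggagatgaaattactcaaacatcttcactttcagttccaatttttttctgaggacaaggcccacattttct
Nkg7: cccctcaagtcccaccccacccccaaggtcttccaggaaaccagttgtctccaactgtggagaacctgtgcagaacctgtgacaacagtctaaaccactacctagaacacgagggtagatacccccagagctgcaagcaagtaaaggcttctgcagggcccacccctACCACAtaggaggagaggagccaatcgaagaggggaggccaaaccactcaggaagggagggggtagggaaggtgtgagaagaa
The motif lies 10 bases before the start of Cxcr6 and 83 before that of Nkg7, on the opposite strand in both, and 129 before that of Klrk1 on the printed strand. On either strand the 6 letters were in 4614 of 32851 promoter windows of this length (14.05%), so a match is common. A match describes the letters and is not a binding site. Of the other genes with higher levels in the members, the motif was in the window of Sytl3 and not in those of Id2 and Bcl2a1b. It was also in windows of genes with lower levels, namely Itga4 and 1 of 3 windows of Tsc22d3 (lower than in Cxcr6-negative cells) and Klrc1 (lower than in cells with NKT genes).

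The authors' matrices held 622 and 755 barcodes in PV and 624 and 588 in CV, with 2741760 to 4373488 UMIs per library. Of 1939 distinct barcodes, 282 were in more than 1 library and 152 in all 4, and each was kept only where at least 70% of its UMIs lay. Before that step 34, 18, 9 and 16 cells met the rule. The members had a median of 5091 UMIs per cell (range 766 to 55701) and 1771 genes, and summed to 169026, 80033, 16279 and 110377 UMIs per library. The CV replicate 1 sum is thus the smallest and rests on 4 cells. In CV replicate 2, 1 CD8 member with 55701 UMIs and 5790 genes held 50.5% of the member UMIs. The next deepest member had 13360. The barcode of that cell was present in 4 libraries, with 81.3% of its UMIs in CV replicate 2, and the cell was not marked as a doublet. It is called the large cell below. Leaving out cells over 20000 UMIs removed it and 1 Cxcr6-negative T cell with 24651 UMIs from the same library.

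The members matched their label by T cell markers that the rule did not use, with Trbc2 in 57 of 59 members and Trbc1 in 40. Trac, which the rule did use, was in 53. Of 9 T cell markers outside the rule all had UMIs, summing to 2700 to 4300 CPM (counts per 1e+06 UMIs of a library sum of members) over the libraries. Markers of other cells were low. Of 10 B cell markers 5 had a UMI, at 61.4 to 217 CPM in sum, with Ms4a1, Pax5, Cd22 and Fcmr among those at 0. Of 10 Kupffer cell and macrophage markers 5 had one, at 17.7 to 61.4 CPM, and no member had a UMI of the 4 Kupffer cell genes of the rule. Hepatocyte transcripts summed to 0 to 118 CPM with Alb at 0, and red cell and platelet transcripts had 0 UMIs. Neutrophil markers summed to 18.1 to 307 CPM, dendritic cell markers to 27.2 to 150 and endothelial markers to 0 to 23.7. Of 11 NK cell markers 8 had UMIs, at 426 and 925 CPM in the PV libraries and 430 and 63.4 in the CV libraries, with Klra8, Klra4 and Cma1 at 0 and Ncr1 in 1 cell.

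The rule's values are given as a description only. Cxcr6 had 1 UMI in 7 members, 2 in 14 and at least 3 in 38, with a highest value of 17. Per library its sum was 143, 46, 20 and 37 UMIs, or 846 and 575 CPM in PV against 1229 and 335 in CV. Just outside the rule were 82 T cells with no Cxcr6 UMI, called Cxcr6-negative T cells, and 176 with UMIs of Klrb1c or Zbtb16, of which 53 had 1 such UMI. A further 75 had at least 2 of the cytokine genes. Among the members 33 had 1 cytokine gene and 26 had none. Cxcr6 was in 0 of 157 B cells, which had a median of 3704 UMIs, which allows a share of up to 1.91%. Its ligand gene Cxcl16 was in 0 of 59 members and in 155 of 210 cells with at least 3 of the Kupffer cell genes, at a median of 6628 UMIs.

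The first question was whether these T cells were more frequent in one zone. T cells were counted only if they had fewer than 2 of the cytokine genes. That gave 103 and 84 cells in the PV libraries and 68 and 76 in the CV libraries. It left out 98 and 123 T cells in PV and 101 and 94 in CV. The members made up 29.1% (95% Wilson interval 21.2 to 38.5) and 16.7% (10.2 to 26.1) of the counted T cells in the PV libraries. In the CV libraries they made up 5.88% (2.31 to 14.2) and 14.5% (8.28 to 24.1). Both PV libraries were above both CV libraries, with PV replicate 2 and CV replicate 2 within each other's intervals. The means were 22.9% ± 8.81 in PV and 10.2% ± 6.07 in CV (SD, n = 2 each), a difference of 12.7 percentage points. It was 6.02 with cells thinned before the rule was applied, and 6.49, 18.9, 8.42 and 17.01 without PV replicate 1, PV replicate 2, CV replicate 1 and CV replicate 2. The exact two-sided permutation test over libraries gave p = 0.3333, the smallest that 2 against 2 can give. As a share of all kept cells the members were 9.01% and 2.73% in PV and 1.08% and 2.93% in CV, which overlap (exact permutation p = 0.667). As a share of Cxcr6+ T cells, again with fewer than 2 cytokine genes, they were 34.1% and 25.5% against 7.84% and 26.8%. These overlap as well (exact permutation p = 0.667). A zone difference in frequency was therefore not detectable in 4 libraries. Intervals cover counting error only.

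**Figure D1:**
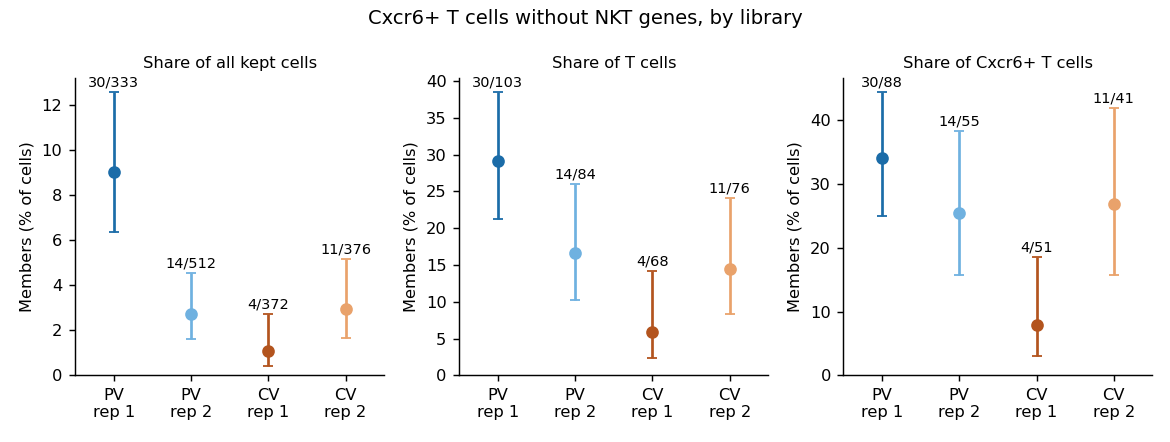
Members as a percentage of all kept cells, of T cells and of Cxcr6+ T cells (y axes) in each of the 4 libraries (x axes). T cells here are those with fewer than 2 of the cytokine genes. Points are shares, bars 95% Wilson intervals, and the counts stand above them. PV replicate 1 is the highest and CV replicate 1 the lowest in each panel, while PV replicate 2 and CV replicate 2 lie close together.

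By coreceptor the members were mixed. CD8, the coreceptor of killer T cells, was detected without CD4 in 16 members, and CD4, that of helper and regulatory cells, without CD8 in 11. Another 1 had both, and 31 had a UMI of neither. All libraries with CD8 members also had CD4 members, and CV replicate 1 had 0 CD8 and 1 CD4 member. Cd8a or Cd8b1 was in 17 of 59 members (28.8%, 95% Wilson interval 18.8 to 41.4), in 31 of 82 Cxcr6-negative T cells (37.8%), in 6 of 176 cells with NKT genes (3.41%) and in 2 of 157 B cells (1.27%). The depths differed, with medians of 5091, 5416, 6131.5 and 3704 UMIs. With each cell thinned to 4220 UMIs, which left 44, 55, 149 and 66 cells, the shares were 29.5%, 40.0%, 3.36% and 1.52%. By library the unthinned share was 26.7% and 35.7% of members in PV and 0 and 36.4% in CV. In Cxcr6-negative cells it ranged more widely, at 6.67% and 33.3% in PV against 16.7% and 67.9% in CV, and in cells with NKT genes it was 0 to 7.32%. The members were thus above the cells with NKT genes in 3 of 4 libraries, and their order against Cxcr6-negative cells differed between libraries. Cd4 was in 12 of 59 members (20.3%), 27 of 82 Cxcr6-negative cells (32.9%), 37 of 176 cells with NKT genes (21.0%) and 1 of 157 B cells (0.637%), and in 18.2%, 32.7%, 16.1% and 1.52% after thinning.

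T cell receptor gamma chain constant genes were detected in more of the members than of the Cxcr6-negative T cells. Tcrg-C1, Tcrg-C2 or Tcrg-C4 had a UMI in 30 of 59 members (50.8%, interval 38.4 to 63.2), in 8 of 82 Cxcr6-negative cells (9.76%, 5.03 to 18.1), in 107 of 176 cells with NKT genes (60.8%) and in 0 of 157 B cells. After thinning the shares were 38.6% (25.7 to 53.4), 5.45%, 56.4% and 0 of 66. The gene for the delta chain, Trdc, which gamma delta T cells need for their receptor, was in 4 of 59 members (6.78%), 4 of 82 Cxcr6-negative cells (4.88%) and 7 of 176 cells with NKT genes (3.98%). After thinning 3 of 44 members had it (6.82%). All 4 Trdc members had a gamma chain UMI, and 26 members had gamma chain UMIs without Trdc. The gamma chain constant genes resemble each other closely, so reads may be split between them, and cells with any of them are counted together. The 3 genes did not pass the low-count filter of the test against Cxcr6-negative cells, so the difference has no test.

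These shares did not differ by zone beyond the spread of the libraries. After thinning Cd8a or Cd8b1 was in 30.9% ± 1.29 of PV members and 15.0% ± 21.2 of CV members (SD, n = 2 libraries, exact permutation p = 0.667), a difference of 15.9 percentage points that was 0.909 without CV replicate 1 and 30.9 without CV replicate 2. For the gamma chain genes the means were 40.5% ± 0.643 and 40.0% ± 14.1 (exact permutation p = 1.0), and for Cd4 they were 16.4% ± 9.0 and 10.0% ± 14.1 (exact permutation p = 0.667). Before thinning Cd4 was in 17.1% ± 4.04 of PV and 26.1% ± 1.61 of CV members, with the zones in the opposite order (exact permutation p = 0.3333), so no order is read from it. Only 2 members of CV replicate 1 were deep enough to be thinned, so the CV values rest on few cells.

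Among themselves the members differed in genes of recirculation. Ccr7 or S1pr1 was found in 14 of 59 members, among them 9 of 16 CD8, 1 of 11 CD4 and 4 of 31 members without a coreceptor UMI. Both genes were found in 4 members, all of them CD8. The CD8 members were also deeper, at a median of 7594 UMIs against 5260 for CD4 and 4780 for the rest. After thinning, either gene was in 7 of 13 CD8, 1 of 9 CD4 and 2 of 21 other members, so the order was the same at equal depth. Either gene was in 10 of 176 cells with NKT genes and in 66 of 82 Cxcr6-negative cells, and in 5 of 149 and 48 of 55 after thinning.

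The CD8 members also carried other genes of naive and central memory cells. Lef1 and Tcf7, transcription factors of naive T cells, were in 11 and 10 of 16 CD8 members. Among the 11 CD4 members Lef1 was in 3 and Tcf7 in 1, and among the 31 without a coreceptor they were in 9 and 12. Dapl1 was in 4 CD8 members and no other member, and Il6ra, a receptor for IL-6, in 5 CD8 members and no other. The chemokine receptor Ccr2, which guides cells into inflamed tissue, had the reverse distribution, with 1 of 16 CD8, 8 of 11 CD4 and 21 of 31 other members (after thinning 1 of 13, 5 of 9 and 14 of 21). Cxcr3, a receptor for interferon-induced chemokines, was in 6, 7 and 22 of them, and Ly6a in 3, 9 and 25. A test of CD8 against CD4 members was not run, because only PV replicate 1 had at least 5 cells of each.

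**Figure D2:**
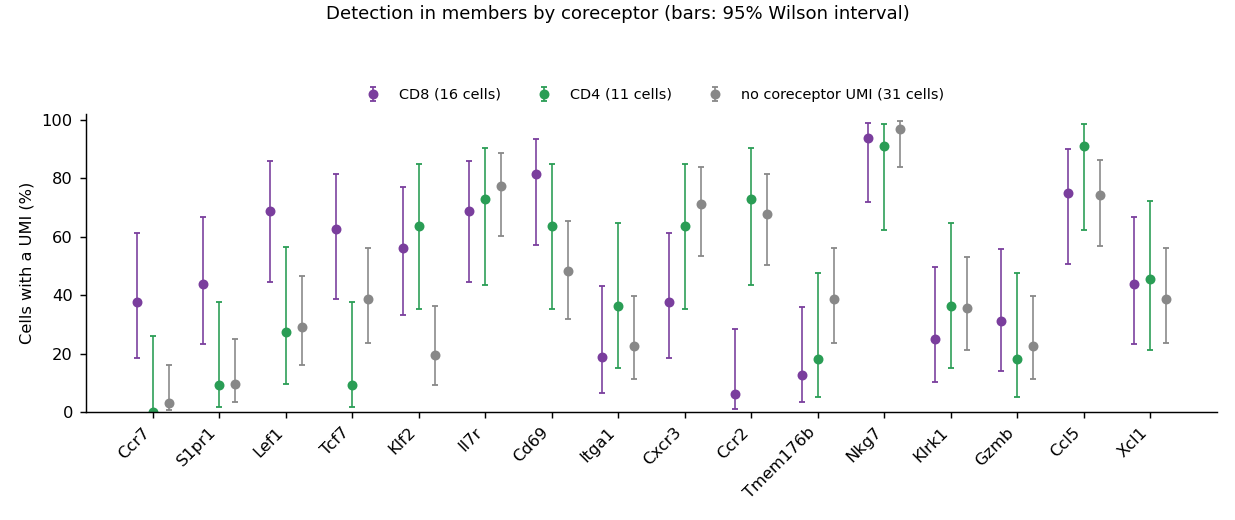
Percentage of members with a UMI (y axis) of 16 genes (x axis) among 16 CD8, 11 CD4 and 31 members without a coreceptor UMI, before thinning; bars are 95% Wilson intervals over cells, which are not replicates. Ccr7 was found in 6 CD8 members and in 1 of all others shown, and Ccr2 was in 1 CD8 member.

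The 14 members with Ccr7 or S1pr1 and the 45 without also differed in other genes, given as a description since the split was made on the same cells. Of the 14, 2 had a gamma chain UMI and none had Itga1, the collagen-binding integrin of liver-resident cells, at a median of 7948.5 UMIs. Of the 45, at a median of 4845 UMIs, 28 had a gamma chain UMI and 15 had Itga1. Ccl5, a chemokine of effector and memory T cells, had a median of 1 UMI in the 14 and 10 UMIs in the 45. The residency marker Cd69 was in 10 of 14 and 25 of 45, and Klf2 in 11 of 14 and 11 of 45. Ccr7 or S1pr1 was in 3 of 7 members with 1 Cxcr6 UMI, 4 of 14 with 2 and 7 of 38 with at least 3.

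Effector genes differed in how their UMIs were spread over cells. Ccl5 had 1094 UMIs in 46 members, with 16.7% of them in the highest cell and a median of 14 UMIs in cells that had it. Xcl1, the chemokine that draws in cross-presenting dendritic cells, had 530 UMIs in 25 members, but 423 of them (79.8%) were in the large cell. Gzma and Gzmb, the granzymes of killer granules, were found together or alone in 16 members. Of 100 Gzmb UMIs in 14 cells 54 were in 1 cell of PV replicate 2, and of 80 Gzma UMIs in 6 cells 36 were in 1 cell. Ccl4 had 161 UMIs in 5 members, all CD8, with 96 and 61 in 2 of them. In contrast Nkg7, a granule membrane protein gene, was in 56 of 59 members and Id2, a repressor that effector and innate-like lymphocytes use, in 51.

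Genes of other T cell programs were found unevenly. Of 15 regulatory T cell genes 10 had a UMI, at 450 to 862 CPM in sum per library, while Foxp3, the regulatory T cell factor, was in 1 member. That list summed to 177 to 1765 CPM in Cxcr6-negative cells and 285 to 620 in cells with NKT genes. Of 19 type 17 genes 13 had a UMI, at 136 to 1659 CPM, among them Tmem176b in 16 members, while Il17a, Il17f, Il23r, Blk and Sox13 were at 0. In the other 2 sets they summed to 78.2 to 568 and 462 to 593 CPM. All these ranges overlap those of the members. Eomes was in 2 and Tbx21, the type 1 factor, in 14. The checkpoint gene Pdcd1 was in 1 and Gzmk in 0. The cell cycle gene Mki67 was in 1 and Top2a in 0. Trav11, the variable segment of invariant NKT cell receptors, was in 1 member. The libraries were made with a 3′ kit, whose capture of variable segments was not tested. No receptor type is therefore read from this count. A count of 0 in 59 cells allows a share of detected cells of up to 5.08%. Of the residency genes Cd69 was in 35, Itga1 in 15, both in 8, Rgs1 in 28 and Itgae in 3. After thinning Cd69 was in 19 of 44 members and 27 of 55 Cxcr6-negative cells. It was also in 64 of 149 cells with NKT genes and 36 of 66 B cells, so it was not particular to the members. Itga1 was in 11, 1, 55 and 2 cells of these sets.

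**Figure D3:**
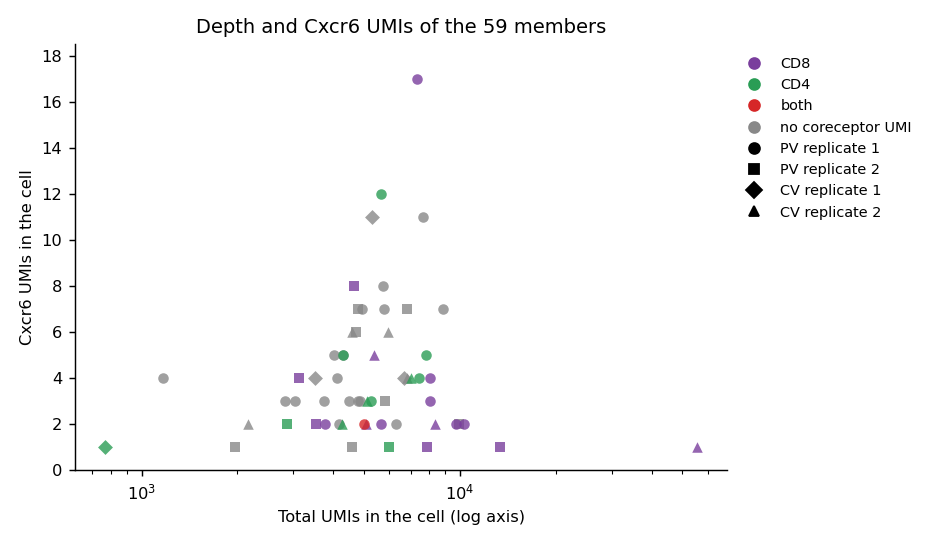
Cxcr6 UMIs (y axis) against total UMIs (x axis, log scale) of each of the 59 members, coloured by coreceptor and shaped by library. The large cell of CV replicate 2 lies alone at 55701 UMIs with 1 Cxcr6 UMI, and the highest Cxcr6 value is 17 UMIs.

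Compared with Cxcr6-negative T cells of the same libraries, the members had higher levels of 5 genes, among them the natural killer receptor gene Klrk1 and the repressor gene Id2. They had lower levels of 13, among them S1pr1 of recirculating T cells and Lef1 of naive T cells. Counts were summed per library and set and tested with edgeR's quasi-likelihood test, keeping the library as a block and leaving out the genes of the rule. Of 1128 genes tested, 18 had an adjusted p below 0.05 (1.6%), 5 higher (0.443%) and 13 lower (1.15%) in the members. At an unadjusted p below 0.05 there were 193, and DESeq2 called 32. Without the large cell and the 1 Cxcr6-negative cell over 20000 UMIs, 52 of 886 were called, 27 higher and 25 lower, and of the 18 genes 15 were still tested and 14 called. Leaving out PV replicate 1 gave 35 calls, leaving out PV replicate 2 gave 7, and leaving out CV replicate 1 or 2 gave 10 or 3.

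The clearest of the 5 higher genes was Klrk1, which encodes the activating receptor NKG2D. Its level was 260 and 237 CPM in the PV members and 491 and 308 CPM in the CV members. In Cxcr6-negative cells it was 12.3 and 0 CPM in PV, against 0 and 10.4 in CV. Every member library was above every Cxcr6-negative one. The log2 fold change was 5.26 ± 0.54 (SE; edgeR adjusted p = 0.000595). The Cxcr6-negative sums held only 3 Klrk1 UMIs against 105 in the members, a ratio of depth-scaled counts of 45.1 with a 95% counting interval of 15.0 to 222. Klrk1 was in 19 of 59 members, 2 of 82 Cxcr6-negative cells, 101 of 176 cells with NKT genes and 2 of 157 B cells.

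Id2 had 1438 and 912 CPM in the PV members and 1290 and 489 CPM in the CV members, against 457, 104, 297 and 110 CPM in Cxcr6-negative cells. Every member library was above every Cxcr6-negative one (log2 fold change 2.15 ± 0.29 SE, edgeR adjusted p = 0.00457). Klrk1 and Id2 were past the test under every alternative fitted, each left-out library included. Nkg7 had 1059, 1087, 799 and 616 CPM in the members and 321, 364, 402 and 355 in Cxcr6-negative cells, again without overlap (1.20 ± 0.26, edgeR adjusted p = 0.0425). Its call was lost when any 1 of the libraries was left out, with an edgeR adjusted p of 0.0515 to 0.292, and the log2 fold change was 2.41 in thinned cells.

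The other two were Bcl2a1b and Sytl3. Bcl2a1b encodes a BCL2-family survival protein and has near-identical copies, so its counts are uncertain where the authors' counting could split reads between them. It had 32, 17, 29 and 56 UMIs in the members against 5, 9, 2 and 7 in Cxcr6-negative cells (log2 fold change 3.05 ± 0.52 SE, edgeR adjusted p = 0.0115). Its highest level was in CV replicate 1, at 1781 CPM against 189, 212 and 507 in the others. Sytl3, a synaptotagmin-like gene of vesicle traffic, had 21, 14, 7 and 14 UMIs against 3, 5, 3 and 8 (2.02 ± 0.41, edgeR adjusted p = 0.0320), and was not past the test without PV replicate 2 or either CV library.

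**Figure D4:**
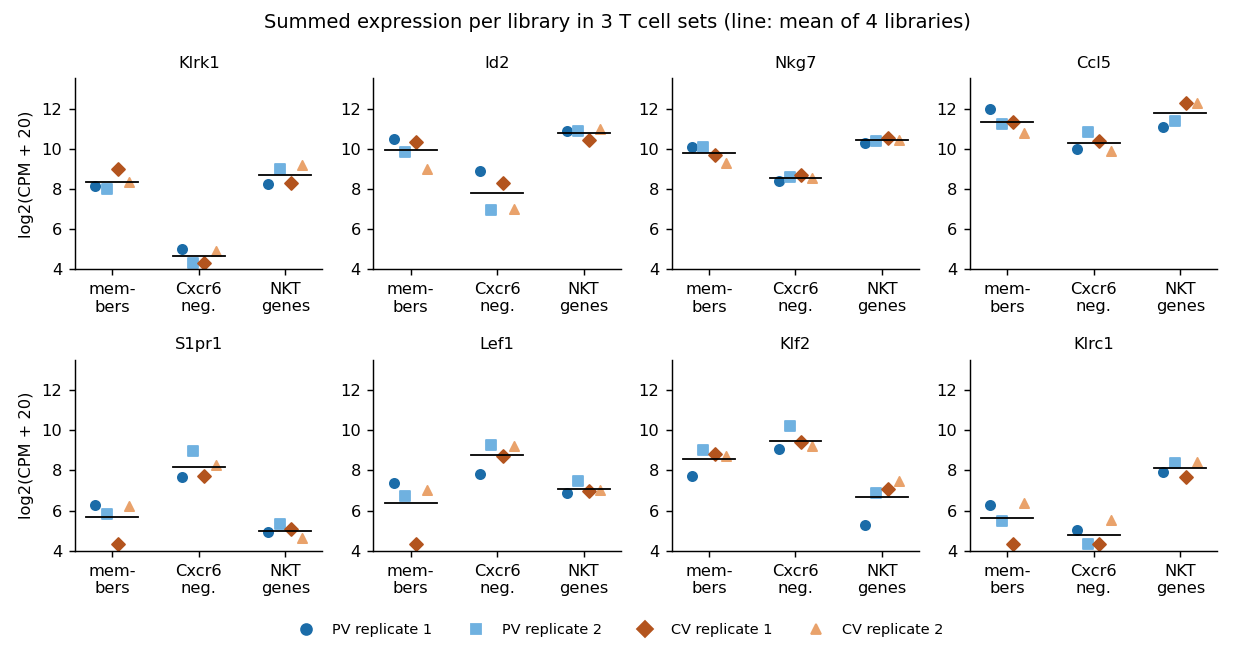
Level of 8 genes, as log2 of summed CPM plus 20 (y axes), in members, Cxcr6-negative T cells and Cxcr6+ T cells with NKT genes (x axes); points are the 4 libraries and lines their mean. Klrk1, Id2 and Nkg7 are higher in the members than in Cxcr6-negative cells in every library, S1pr1 and Lef1 are lower, and the cells with NKT genes lie lower for Klf2 and higher for Klrc1.

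Of the 20 cytotoxicity genes listed, 6 passed the low-count filter. Klrk1 and Nkg7 were called higher and none lower, beside 5 higher of all 1128 genes tested (0.443%). All 6 values were above 0, and the median log2 fold change was 1.05 beside 0.07 over all genes tested. The direction of a list is a description here and carries no test. Ctsw, a cathepsin of killer cells, had 461 and 762 CPM in the PV members and 553 and 290 CPM in the CV members. Cxcr6-negative cells had 86.4, 91.1, 192 and 224 CPM. Its log2 fold change of 1.71 missed the test (edgeR adjusted p = 0.0628) and was 1.99 and past it without the 2 cells over 20000 UMIs. Ccl5 had 3964, 2387, 2580 and 1730 CPM in the members against 987, 1828, 1328 and 918, with a log2 fold change of 0.98 (edgeR adjusted p = 0.0628), which was 1.28 and past the test without those cells.

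The 13 lower genes included genes of homing and egress from lymph nodes. S1pr1, the receptor T cells need to leave lymphoid tissue, had 59.2 and 37.5 CPM in the PV members and 0 and 54.4 CPM in the CV members. The Cxcr6-negative sums were 185 and 488 CPM in PV, and in CV they were 192 and 287. The sets did not overlap (log2 fold change -2.61 ± 0.44 SE, edgeR adjusted p = 0.0114). Lef1 had 148, 87.5, 0 and 109 CPM in the members and 210, 598, 402 and 579 in Cxcr6-negative cells (-2.09 ± 0.45, edgeR adjusted p = 0.0425). It was in 23 of 59 members, 59 of 82 Cxcr6-negative cells and 83 of 176 cells with NKT genes. After thinning it was in 15 of 44, 43 of 55 and 55 of 149. Igfbp4, an IGF-binding protein gene expressed in naive T cells, had 29.6 CPM in PV replicate 1 and 0 in the other member libraries, against 115 to 234 CPM in Cxcr6-negative cells (-3.86 ± 0.62, edgeR adjusted p = 0.0100).

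Slamf6, a receptor of the SLAM family on less differentiated T cells, was lower, with 0 to 75.0 CPM in the members against 167 to 312 CPM (log2 fold change -2.67 ± 0.41 SE, edgeR adjusted p = 0.00908). Dapl1 had 0 to 87.5 CPM against 259 to 553 CPM (-2.47 ± 0.38, edgeR adjusted p = 0.00908). Itga4, the alpha 4 integrin chain that binds VCAM-1, had 94.7, 62.5, 123 and 9.06 CPM against 358, 429, 384 and 83.5 (-2.33 ± 0.38, edgeR adjusted p = 0.0100). For Itga4 the sets overlap across libraries, since CV replicate 2 was low in both, but each member sum was below its partner. Actn1, an actin crosslinker, had a log2 fold change of -2.17 ± 0.38 (edgeR adjusted p = 0.0121). Top2b, Tsc22d3 and Crlf3 had log2 fold changes of -1.67, -1.59 and -1.54 with edgeR adjusted p of 0.0425, 0.0209 and 0.0257. The remaining 3 were the ribosomal protein genes Rps29 and Rpl35a and AY036118. Without CV replicate 2, 0 of the 13 lower genes stayed past the test in a fit that called 3 genes in all.

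Of 22 recirculation and naive-like genes listed, 14 passed the filter, 5 were called lower and none higher. Over all 1128 genes tested, 13 were called lower (1.15%). All 14 values were below 0, with a median log2 fold change of -1.51 beside 0.07 over all genes tested. Without the 2 cells over 20000 UMIs 12 were tested, 5 were called lower, all 12 lay below 0 and the median was -1.21. In that fit 25 of all 886 genes were called lower. Leaving out PV replicate 1 or 2 gave 7 or 2 called lower, leaving out CV replicate 1 or 2 gave 4 or 0, and every tested value stayed below 0. Values that did not pass were -1.06 ± 0.26 for Klf2 (edgeR adjusted p = 0.0601), -1.76 for Tcf7 (0.0509) and -1.66 for Ccr7 (0.122). In single cells Klf2 was in 22 of 59 members and 66 of 82 Cxcr6-negative cells, and Ccr7 in 7 and 46.

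Of 24 residency genes, 23 were outside the rule and 6 of them passed the filter. None was called, with a median log2 fold change of 0.33 beside 0.07, or 0.86 over 4 genes without the 2 cells over 20000 UMIs. Rgs1, a brake on chemokine signalling in tissue T cells, had a log2 fold change of 1.53 (edgeR adjusted p = 0.414) and Cd69 -0.66 (0.309). Xcl1 had 2.18 (0.307), with most of its member UMIs in 1 cell. Itga1 and Itgae did not pass the filter.

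**Figure D5:**
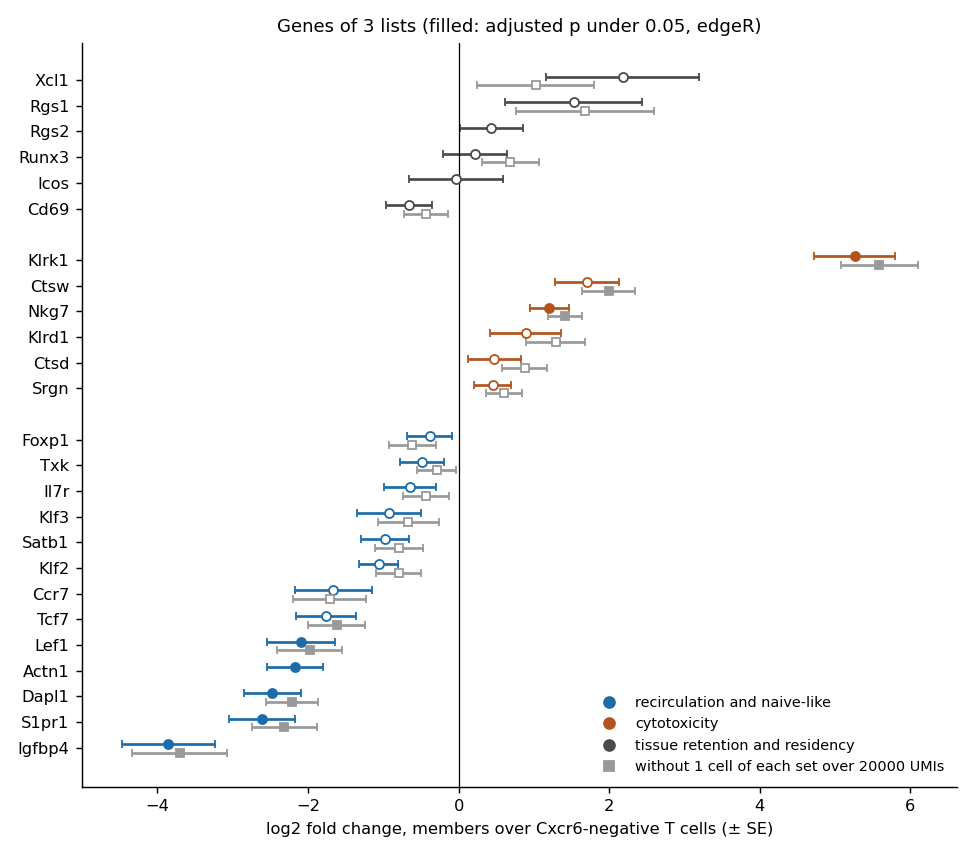
Log2 fold change of members over Cxcr6-negative T cells (x axis, bars ± SE) for tested genes of 3 lists (y axis), with all cells (circles) and without the 1 cell of each set over 20000 UMIs (grey squares); filled symbols have an edgeR adjusted p under 0.05. The recirculation genes shown lie below 0 and all 6 cytotoxicity genes above it.

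The comparison with Cxcr6+ T cells that have NKT genes asked what else goes with 0 UMIs of Klrb1c and Zbtb16. A count of 0 can be missed detection, and the members were shallower, at a median of 5091 against 6131.5 UMIs. Its part was not tested. Of 25 innate-like T cell genes outside the rule, 22 had a UMI in the members. They summed to 1313 and 2012 CPM in PV and 1413 and 698 in CV. In cells with NKT genes the sums were 1304 and 2177 against 3147 and 4010 CPM. Few genes were called between the sets. Of 2424 genes tested in edgeR, again with libraries as blocks, 2 were called (0.0825%), with Klf2 higher (0.0413%) and Klrc1 lower (0.0413%) in the members. At an unadjusted p below 0.05 there were 174, and DESeq2 called 3. Without the large cell 8 were called, and without the block 0. Requiring at least 3 of the 4 T cell genes gave 0 calls, and leaving out PV replicate 1, PV replicate 2, CV replicate 1 or CV replicate 2 gave 2, 1, 4 and 2.

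Klf2 had 189 and 500 CPM in the PV members and 430 and 399 CPM in the CV members. In cells with NKT genes it had 18.9 and 98.6 CPM in PV, against 114 and 156 in CV. All member sums were above all sums of the other set (log2 fold change 2.22 ± 0.33 SE, edgeR adjusted p = 0.0328). Klf2 was in 22 of 59 members and 32 of 176 cells with NKT genes, and in 20 of 44 and 19 of 149 after thinning. Its adjusted p was 0.246 without the block, 0.138 with at least 2 Cxcr6 UMIs, 0.0588 without PV replicate 1 and 0.122 without PV replicate 2. Klrc1, the NKG2A chain of an inhibitory receptor, had 59.2, 25, 0 and 63.4 CPM in the members and 225, 316, 186 and 327 CPM in cells with NKT genes. The sets did not overlap (-2.39 ± 0.39, edgeR adjusted p = 0.0433), and the gene was in 8 of 59 and 64 of 176 cells. Klrc1 has close relatives in the same cluster, and its call was lost without the block and without PV replicate 1, PV replicate 2 or CV replicate 1.

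Among the next genes by p, none past the test, were Fos, Gpr183 and Tyrobp. Fos, an immediate early transcription factor, had a log2 fold change of 2.25 (edgeR adjusted p = 0.218). Gpr183, a receptor for oxysterols that places lymphocytes in lymphoid tissue, had 3.14 (0.294), and Tyrobp, the DAP12 adaptor of natural killer receptors, had -2.80 (0.294). Without the large cell all 3 passed, at 2.55, 3.44 and -2.37. Tyrobp did not keep 1 direction, with 11.8 CPM in members of PV replicate 1 against 5.41 in cells with NKT genes. It had 2, 6, 0 and 2 UMIs in the members, and 5.41 to 660 CPM over libraries in the other set. Gpr183 had 59.2, 75.0, 1413 and 136 CPM in the members, the highest from 23 UMIs in CV replicate 1. Fos was also highest there, at 2027 CPM from 33 UMIs. The remaining genes near the top were Rplp0, Malat1, Rpl15, Rpl39 and Ppp1r15a, with values of 0.53, -0.53, 0.67, 0.30 and 1.66. Rplp0 and Malat1 ranked by p between Fos and Gpr183. Of 14 cytotoxicity genes tested, Klrc1 was called lower, beside 1 of all 2424 genes (0.0413%). Of the 14, 12 lay below 0, with a median of -0.55 beside -0.01 over all genes. The genes that were higher than in Cxcr6-negative cells had values of -0.53 ± 0.22 for Nkg7, -0.82 ± 0.25 for Id2 and -0.35 ± 0.30 for Klrk1 against the cells with NKT genes (SE), with edgeR adjusted p of 0.639, 0.454 and 0.892, so a difference was not detectable. Of 12 residency genes tested none was called, with a median of 0.03. All 14 MHC class I genes were tested, none was called and 12 lay below 0, at a median of -0.31, which was -0.10 without the large cell.

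The zone comparison within the members asked whether their summed counts differed between the portal and central zones. The members were mixed, with 7 and 5 CD8 members in the PV libraries and 0 and 4 in the CV libraries. The part of this mix in the sums was not tested. No gene passed. Of 1350 genes tested in edgeR, 0 were called (0.0%), with 135 at an unadjusted p below 0.05, and DESeq2 called 0 with 33. The zones did not overlap for 504 genes (37.3%). The result moved with the libraries, since leaving out CV replicate 1 gave 288 calls, CV replicate 2 gave 19, PV replicate 2 gave 6 and PV replicate 1 gave 2. In such a fit 1 zone has a single library, which is assumed to vary like the other zone's pair. Without the large cell 0 of 849 were called, with 56 at an unadjusted p below 0.05.

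The genes with the smallest p are given as not past the test. Gzma had 45 and 35 UMIs in PV members and 0 and 0 in CV members. The edgeR adjusted p was 0.231. Its level in PV was 321 CPM, and 3 counts over both CV libraries would be 23.7 CPM. The ratio of these was 13.6, or 7.60 without the large cell. That ratio is no lower limit of the difference, since 36 of the 80 Gzma UMIs were in 1 cell and 23 in another. Gzma was in 6 of 44 PV members and 0 of 15 CV members, which allows a share of up to 20%. The NK cell marker list, which holds Gzma, summed to 426 and 925 CPM against 430 and 63.4, and its part in the result was not tested. Nfkbia, the inhibitor induced by NF-kappaB, had 5 and 11 UMIs in PV and 51 and 73 in CV (log2 fold change -4.50 ± 0.93 SE, edgeR adjusted p = 0.257). Gadd45b, a stress-induced gene, had 4 and 1 against 6 and 25 UMIs (-3.66 ± 0.59, edgeR adjusted p = 0.231), and Rgcc had 2 and 3 against 9 and 25 (-3.82 ± 0.68, 0.231).

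Hmgn1, a nucleosome-binding protein gene, had 4 and 3 UMIs in PV and 2 and 31 in CV (log2 fold change -3.10 ± 0.61 SE, edgeR adjusted p = 0.257). Malat1, a nuclear RNA, had 24913 and 21654 CPM in PV, against 17999 and 12702 in CV (0.62 ± 0.12, 0.257), and Tmsb10 had 0.58 ± 0.12. With the large cell left out they were 0.25 for Malat1 and 0.16 for Tmsb10. Mrpl42, Ddx21 and Eif3j1 had -2.47, -2.44 and -2.40 (edgeR adjusted p = 0.317 for each). Rgcc, Hmgn1, Mrpl42, Ddx21 and Eif3j1 did not pass the low-count filter without the large cell.

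Of 27 immediate early and dissociation response genes, which stimulation or tissue digestion can switch on, 20 passed the filter. None was called, 17 of 20 were lower in PV members, and the median log2 fold change was -0.82 beside -0.01 over all genes tested. Without the large cell it was 18 of 21, at a median of -1.58 beside 0.03. The list summed to 4804 and 9459 CPM in the PV members and 21009 and 11234 CPM in the CV members. In Cxcr6-negative cells it summed to 11081 and 12574 against 10136 and 7105 CPM, and in cells with NKT genes to 5071 and 7592 against 10361 and 7709 CPM. CV replicate 1, with 4 members, was the highest of the member libraries, and the part of tissue handling in these values was not tested. Fos alone had 4 and 8 UMIs in PV and 33 and 29 in CV, or 23.7, 100, 2027 and 263 CPM (-4.10 ± 1.06, edgeR adjusted p = 0.429).

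Of the other lists, 12 MHC class I genes were tested, none was called and all 12 lay above 0 at a median of 0.62. Without the large cell 8 of 9 did, at 0.14. Of 10 cytotoxicity genes tested none was called and 8 lay above 0, at a median of 0.64, which was 0.20 over 8 genes, 5 of them above 0, without the large cell.

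Whether the zone difference of the members itself differed from that of Cxcr6-negative T cells was tested as an interaction in edgeR. Of 1696 genes 0 were called (0.0%), with 97 at an unadjusted p below 0.05, and DESeq2 called 2. Without the 2 cells over 20000 UMIs 7 were called, namely Fos, Gpr183, Hspa1b, Tnfaip3, Cd8a, Jund and Nfkbia. Leaving out CV replicate 1 gave 28 calls, CV replicate 2 gave 5, PV replicate 2 gave 6 and PV replicate 1 gave 0. The lowest adjusted p in the full fit was 0.0783, shared by Fos and Hspd1. Fos had a log2 difference of zone differences of -3.96 ± 0.69 (SE), with 4 and 8 UMIs in PV and 33 and 29 in CV members, against 25 and 50 in PV and 34 and 22 in CV of the Cxcr6-negative cells. Hspd1, a mitochondrial chaperone gene, had -4.14 ± 0.67, with 19, 11, 4 and 141 UMIs in the members against 26, 31, 3 and 23. Without the 2 cells over 20000 UMIs it was -1.50 (edgeR adjusted p = 0.963).

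Further genes near the top were not past the test either. Gpr183 had -3.34 (edgeR adjusted p = 0.212) and Tnfaip3, an inhibitor of NF-kappaB signalling, had -3.36 (0.276). Cd7, Cd8b1, S100a6, Hspa1b, Gadd45b and Hspe1 had 3.00, 2.85, -2.56, -2.25, -4.08 and -2.21 with an edgeR adjusted p of 0.345 each, and Hspe1 was at -0.73 without the 2 cells over 20000 UMIs. Of 22 immediate early genes tested none was called and 19 lay below 0, with a median of -1.64 beside 0.02 over all genes. Without the 2 cells over 20000 UMIs, a setting added after the data were seen, 4 of 21 were called below 0. In that fit 6 of all 1265 genes were called below 0. Such a value means that the members' zone difference, PV over CV, was below that of Cxcr6-negative cells. It does not show a zone difference in the members alone, whose PV against CV fit in this setting called 0 of 849 genes. Of the 21, 19 lay below 0 and the median was -1.75 beside 0.08.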

How the data were processed

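Single-cell RNA was measured in 4 libraries of liver CD45+ cells made with the 3′ v3.1 kit of 10x Chromium, per the labels' protocols. The values deposited are UMI counts for each gene in each barcode, not normalized. Cell Ranger 4.0.0 and mm10 were used, per the submitters' processing notes. The sources used here do not give the annotation or how cells were called. The members and gene lists were chosen with earlier results of these data known, so counts over lists are descriptions.

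Cells needed at least 200 genes, at most 10% mitochondrial UMIs and, for a barcode in several libraries, at least 70% of its UMIs in 1 of them. Scrublet in scanpy 1.11.5 at an expected rate of 3% marked 2, 7, 3 and 1 cells and no member, and these stayed in except in 1 alternative. B cells had Cd79a, and Cd79b or Ms4a1, and none of the T cell genes. Raw counts were summed per library and cell set, since a cell is not a replicate. The sums were tested with edgeR 4.0.16 in R 4.3.3 (quasi-likelihood, TMM, filterByExpr, Benjamini-Hochberg at 0.05), with the library as a block between cell sets. DESeq2 1.42.0 was the other tool. The 17 genes of the rule were left out of the tests between cell sets and of the interaction. They were not left out of the PV against CV test within the members. Shares have 95% Wilson intervals, and a count of 0 allows 3 counts. Thinning drew 4220 UMIs per cell, the 25th percentile of the members, and left shallower cells out. Levels in the plot by set add 20 CPM before the logarithm. Python 3.11.15, numpy 2.4.6, scipy 1.17.1, pandas 2.3.3 and matplotlib 3.10.9 were used.

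For each comparison the rule for named genes took up to 10 called genes per direction with 1 direction in every library, then those with the smallest p up to 10 in all, plus genes of the lists; gene models without a proper name were passed over, and some list genes are not reported here. Rps29, Rpl35a and AY036118 were named after their values were seen. The edgeR test was tested on simulated data with known changes. Alternatives were DESeq2, RLE size factors, no low-count filter, other barcode, cell, doublet, T cell gene and Cxcr6 limits, thinned cells, the block, and each library left out. Leaving out cells over 20000 UMIs was added after the data were seen. The sums of a zone's 2 libraries differed, at a chi-square per degree of 1.76 (PV, 3233 genes) and 2.94 (CV, 1719 genes), so no library was a copy of another.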

Additional observations from a re-analysis of the deposited data

How the results depend on the processing

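A count of calls has no direction to reverse. No value among the 45 results for named genes, the share of members among T cells or the Cd8 share by zone reversed direction. Each of the 45 is a gene in 1 comparison, and some genes are in more than 1. Outside these, without thinning the PV minus CV difference of the Cd4 share went from 6.36 to -8.99 percentage points and that of Trdc from -0.455 to 0.455. The count of genes called between zones was 0 and became 9 without a low-count filter, 3 in thinned cells and 12 with at least 2 Cxcr6 UMIs, and ranged from 2 to 288 with 1 library left out. Between members and Cxcr6-negative T cells 18 genes became 32 in DESeq2, 56 without the filter, 52 with every shared barcode left out, 55 in thinned cells, 40 with at least 2 Cxcr6 UMIs and 52 without cells over 20000 UMIs, and ranged from 3 to 35 with 1 library left out. Against cells with NKT genes 2 became 25 without the filter, 5 with shared barcodes kept, 14 with every shared barcode left out, 10 in thinned cells, 0 with at least 3 T cell genes and 8 without cells over 20000 UMIs, and ranged from 1 to 4. The interaction count of 0 became 2 in DESeq2, 4 without the filter, 7 with every shared barcode left out, 1 in thinned cells, 14 with at least 2 Cxcr6 UMIs and 7 without cells over 20000 UMIs, and ranged from 0 to 28. The cause was not tested.

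With the replicate number as a block, 9 genes were called between zones. Deviations of same-numbered libraries correlated at 0.0615 over 1350 genes in 2 pairs, so the numbers are not shown to pair the libraries. Between cell sets the block was the library, not the replicate number. With that library block left out, 19 genes were called against Cxcr6-negative cells and 0 against cells with NKT genes.

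The PV excess among T cells of 12.7 percentage points was 6.02 to 13.4 over the settings and 6.49 to 18.9 with 1 library left out. Over the 45 results for named genes, values by setting kept their side of the threshold in 523 cases, passed it in 78 and lost it in 47. The 4 members of CV replicate 1, with 16279 UMIs, limit every zone value.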

Other observations

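Other lists compared between members and Cxcr6-negative T cells held few genes that passed the low-count filter. They are given as counts and medians of log2 fold changes beside 0.07 over all genes tested. Over all 1128 genes, 5 were called higher (0.443%) and 13 lower (1.15%). Of 29 integrin and adhesion genes 16 were tested and Itga4 was called lower, with 13 values above 0 and a median of 0.19. Of 23 lineage and effector transcription factors 5 were tested and Id2 was called higher, at a median of 0.01. Of 25 innate-like T cell genes outside the rule 4 were tested and Slamf6 was called lower, at a median of 0.98. Of 15 chemokine and lipid attractant receptors 3 were tested and none was called, with 1.87 ± 0.51 (SE) for Cxcr3 (edgeR adjusted p = 0.0788) and 1.92 ± 0.74 for Ccr2 (0.204). Of 24 T cell receptor signalling genes 11 were tested, none was called and the median was 0.01.

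Tmem176b, a membrane protein gene found in type 17 T cells and other immune cells, had 11, 41, 9 and 2 UMIs in the members and 2, 0, 0 and 0 in Cxcr6-negative T cells. It did not pass the filter and has no test. It was in 16 of 59 members, 12 of them without a coreceptor UMI, in 1 of 82 Cxcr6-negative cells, in 55 of 176 cells with NKT genes and in 7 of 157 B cells. After thinning it was in 13 of 44, 1 of 55, 41 of 149 and 2 of 66. Of its 63 UMIs in the members 41 were in PV replicate 2.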
